A study of Mus musculus and Homo sapiens
Mus musculus with 16 samples.

Results

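The LIM-only genes Lmo4, Lmo3 and Lmo1 were examined for the listed contacts of their gene bodies in mouse fetal forebrain. They are 3 of 20665 autosomal protein-coding genes, taken as named members of 1 gene family. Their interactions are all those in which either bin of 10 kb overlaps the mm10 body of 1 of these genes. These came to 100 of the 58543 bin pairs listed in any library. Chromatin contacts were measured by H3K4me3 PLAC-seq in fetal forebrain at the embryonic stage E16.5 (2 libraries) and at E12.5 (2 libraries). The labels of these libraries name no genotype, strain or sex and do not say whether tissue was pooled. They also do not say that the replicates of a stage are separate animals or litters, and the p-values below cover the spread between the libraries as they are, which may be technical. The other 12 of the 16 samples of the series were not analysed here. PLAC-seq ligates DNA ends that lie near each other in the nucleus and then pulls down ligation products with an antibody, here against H3K4me3, a histone mark of active and poised promoters. Each library's file lists the bin pairs that its authors called as interacting and the read pairs behind each.

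LIM-only proteins consist of little more than a pair of LIM zinc fingers. They do not bind DNA themselves, but bridge transcription factors of the GATA and basic helix-loop-helix classes to the LIM-binding cofactors of the LDB family, and they compete for those cofactors with LIM-homeodomain proteins. Lmo1 and its relative Lmo2 were first known from translocations in human T-cell leukaemia, and Lmo3 is known as a partner of neuronal basic helix-loop-helix factors. Lmo4 is known in the cerebral cortex as a gene of postmitotic projection neurons and of the identity of cortical areas.

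The list lengths differed between the stages. The E16.5 libraries listed 35291 and 36794 interactions with 892987 and 911710 read pairs, and the E12.5 libraries listed 18413 and 16075 interactions with 446855 and 405491 read pairs, a ratio of 2.09 in list length. The sequencing depth behind the lists is unknown. An unlisted bin pair may still be in contact, and a number of 0 says that no pair reached the authors' threshold. As a check of the tissue label, 11 of 11 forebrain genes had listed interactions in every library. These came to 431 and 393 in all at E16.5 and 404 and 398 at E12.5. Of all 20665 genes, 37.3% and 39.1% had a listed interaction at E16.5 and 24.9% and 23% at E12.5. Of 9 genes of regions outside the forebrain, 7 had interactions in each E16.5 library and 8 in each E12.5 library. Their summed numbers were 87 and 56 at E16.5 and 163 and 110 at E12.5, with En2 at 0 in all. These genes too were listed more often than all genes, so having a listed interaction does not set the forebrain apart from other regions. Blood and vessel genes (6 on autosomes) summed to 0 and 1 at E16.5 and 1 and 0 at E12.5, and 5 of them, among them Tal1, Kdr and Pecam1, were at 0 throughout. Microglia genes summed to 5 and 2 at E16.5 and 5 and 8 at E12.5, with Cx3cr1 and Csf1r at 0. Of genes of upper-layer cortical neurons, Cux1 had 47 and 54 interactions at E16.5 and 15 and 19 at E12.5, Cux2 had 35 and 27 at E16.5 and 16 and 19 at E12.5, and Bhlhe22 had 32 and 18 at E16.5 and 3 and 1 at E12.5. The part of cell composition in the results below was not tested. In whole forebrain tissue, more cells of a type and more contacts per cell cannot be told apart.

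The sequences just before the gene starts are shown because H3K4me3 is placed mainly at CpG-rich promoters, and the 3 genes differ in where their listed contacts begin. A relation of CpG content to where contacts begin was not tested. Each is the 250 bases before a start in RefSeq (GRCm38.p6, the assembly of mm10), written 5′ to 3′ on the minus strand for the LIM-only genes, with CG dinucleotides in capitals. All 3 genes were matched in the table. The windows are chr3:144205256-144205505 for Lmo4, chr6:138581969-138582218 for Lmo3 and chr7:109175208-109175457 for Lmo1. Those of Lmo4 and Lmo1 lie just outside the gene bodies used here. Most of the Lmo3 window lies inside its gene body, which ends at 138582206, so the windows are not alike in this. The last sequence is that of the long noncoding RNA gene A830019L24Rik (chr3:143242805-143243054, plus strand). That gene lies in the partner bin of the most enriched Lmo4 contact and was chosen after the values were seen.
Lmo4: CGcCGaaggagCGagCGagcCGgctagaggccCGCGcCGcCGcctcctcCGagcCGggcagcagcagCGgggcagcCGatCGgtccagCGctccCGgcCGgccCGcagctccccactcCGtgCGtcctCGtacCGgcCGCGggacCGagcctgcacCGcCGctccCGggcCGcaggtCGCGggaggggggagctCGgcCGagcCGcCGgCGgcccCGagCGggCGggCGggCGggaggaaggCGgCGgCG
Lmo3: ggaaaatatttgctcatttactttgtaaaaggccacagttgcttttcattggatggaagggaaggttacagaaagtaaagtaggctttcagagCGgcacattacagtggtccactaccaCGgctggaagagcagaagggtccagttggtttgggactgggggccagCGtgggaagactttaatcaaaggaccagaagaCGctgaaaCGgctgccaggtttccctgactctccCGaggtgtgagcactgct
Lmo1: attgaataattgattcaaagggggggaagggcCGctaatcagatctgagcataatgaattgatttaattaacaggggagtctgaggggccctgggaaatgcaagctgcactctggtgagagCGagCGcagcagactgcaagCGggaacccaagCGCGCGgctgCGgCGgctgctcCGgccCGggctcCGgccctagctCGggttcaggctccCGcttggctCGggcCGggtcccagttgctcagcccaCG
A830019L24Rik: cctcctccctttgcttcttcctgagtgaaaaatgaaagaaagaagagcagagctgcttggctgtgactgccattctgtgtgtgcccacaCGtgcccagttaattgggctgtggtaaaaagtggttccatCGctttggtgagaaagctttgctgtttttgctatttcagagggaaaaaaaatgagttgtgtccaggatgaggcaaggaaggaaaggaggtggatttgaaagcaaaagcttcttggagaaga

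The Lmo4 window held 44 CG dinucleotides, and 0.5% of 32851 start windows of the same length in the table held at least as many. The Lmo1 window held 17, a number reached by 23.5% of windows. The Lmo3 window held 6, the median of all windows, and that of A830019L24Rik held 2. Lmo4 has 2 further starts in the table, with 25 and 29 CG dinucleotides, and Lmo1 has 1 further start with 29. The restriction site of MboI, GATC, which sets where the assay can ligate, occurred once in the Lmo4 and Lmo1 windows, not in the other 2, and in 41.9% of all windows. The E-box sequences CAGATG and CAGCTG were searched on both strands; matches were counted for each motif by itself, so that GATC and CG may share an end base. Neither E-box occurred in the 4 printed windows, against 14.4% and 13.0% of all windows.

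Lmo4 had the most listed interactions of the 3 genes, and their number rose at E16.5. The gene (RefSeq gene 16911) spans 144188530 to 144205255 on chromosome 3, on the minus strand, over 3 bins. It had 44 and 51 listed interactions in the E16.5 libraries, against 6 and 9 in the E12.5 libraries. Both E16.5 libraries lay above both E12.5 libraries, as they did for 64.5% of tested genes given the longer lists, against 3.39% with both below. The mean was 47.5 ± 4.95 at E16.5 and 7.5 ± 2.12 at E12.5 (SD, n = 2 each). Numbers were scaled by each library's interactions summed over genes, with TMM factors, and not by the list length itself. After this scaling the Lmo4 number was 3.5-fold higher (log2 change 1.81 with an SE of 0.32; edgeR's quasi-likelihood test, adjusted p = 0.00184). In the same test 11.0% of 4036 genes with at least 10 interactions over the 4 libraries were higher at E16.5, and 3.49% were lower. The median log2 change of all tested genes was 0.25 with TMM factors and 0.11 with the library totals alone, and that of Lmo4 was above both. The read pairs behind the Lmo4 interactions summed to 826 and 892 at E16.5 and to 78 and 138 at E12.5. Neighbouring partner bins are not independent contacts. With each cluster of neighbouring interactions counted once, Lmo4 had 7 and 12 at E16.5 and 2 and 4 at E12.5 and did not pass (log2 change 0.99, adjusted p = 0.615 by edgeR). With read pairs in place of numbers the log2 change was 2.03 and did not pass either (adjusted p = 0.219 by edgeR).

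**Figure D1:**
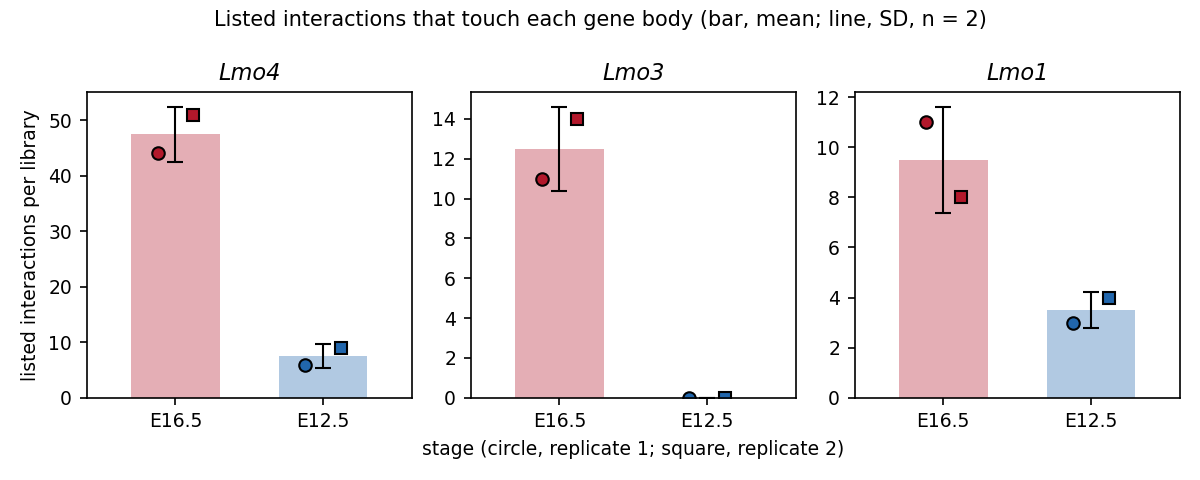
Number of listed interactions that touch the body of Lmo4, Lmo3 and Lmo1 in each library (y axis, scaled separately for each gene), with E16.5 left of E12.5. Bars are means, lines are the SD over 2 libraries, circles are replicate 1 and squares replicate 2; Lmo4 had 44 and 51 against 6 and 9, Lmo3 11 and 14 against 0 and 0, and Lmo1 11 and 8 against 3 and 4.

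Most Lmo4 interactions began at the bin that holds all 3 of its starts, chr3:144200001-144210000, with 34 and 38 at E16.5 and 6 and 9 at E12.5. The next bin, inside the gene, had 10 and 13 at E16.5 and none in either E12.5 library. The third, at the 3′ end of the gene, had none in any library. All E12.5 interactions came from the bin of the CpG-rich start shown above.

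The Lmo4 partners lay on both sides of the gene, mostly on the downstream side. Of the E16.5 interactions, 38 and 44 had their partner downstream and 6 and 7 upstream. At E12.5, 6 and 7 partners were downstream and 0 and 2 upstream. Upstream partners lay 110 to 210 kb away at E16.5 and 190 and 200 kb away in E12.5 replicate 2. Downstream partners reached 980 and 990 kb at E16.5, close to the 1000 kb that is the longest distance in the files, so that any longer contact would not be seen. Distances of at least 600 kb made up 79.6% and 70.6% of the Lmo4 interactions at E16.5 and 83.3% and 33.3% at E12.5. Over all listed interactions the shares were 18.6% and 16.7% at E16.5 and 14.2% and 13.6% at E12.5.

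The median distance of Lmo4 interactions was 705 and 680 kb at E16.5 and 615 and 530 kb at E12.5. Both E16.5 medians were longer, by 120 kb on average, with an exact two-sided permutation p of 0.333, the smallest that 2 libraries against 2 allow. The difference was 77.5 kb without E12.5 replicate 2, and it turned to -140 kb at the stricter FDR of 0.0001. Weighted by read pairs, the mean distance was 632.4 and 584.5 kb at E16.5 and 729 and 389.3 kb at E12.5, so the stages overlapped (a difference of 49.3 kb).

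**Figure D2:**
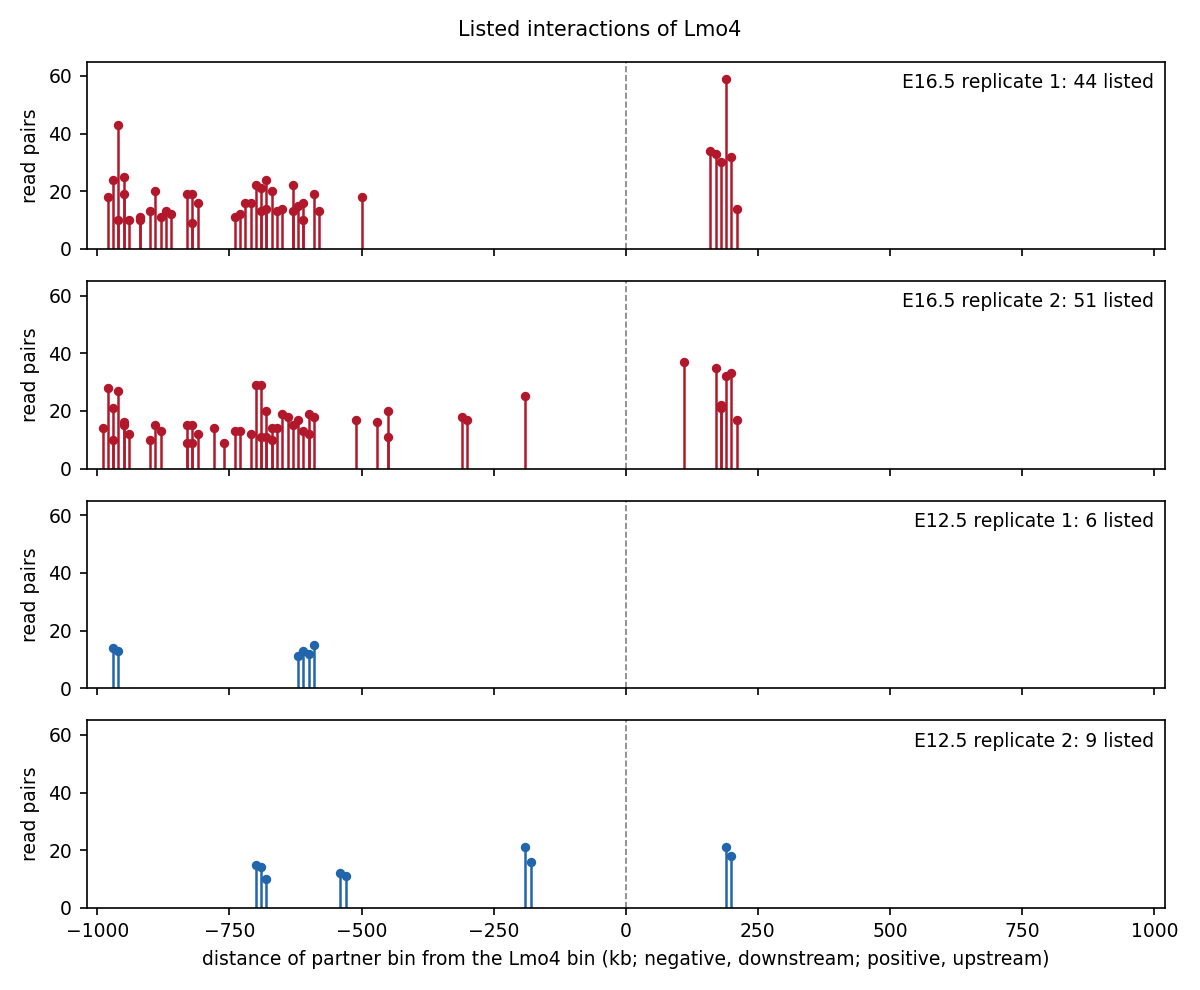
Read pairs (y axis) of each listed Lmo4 interaction against the distance of its partner bin from the Lmo4 bin in kb (x axis), with downstream partners at negative values, 1 panel per library. The 44 and 51 interactions at E16.5 form a broad downstream group and a narrow group 110 to 210 kb upstream, while at E12.5 the 6 interactions of replicate 1 are all downstream, at 590 to 620 and 960 to 970 kb, and the 9 of replicate 2 lie 180 to 700 kb downstream and 190 to 200 kb upstream.

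None of the partner bins of Lmo4 overlapped a protein-coding gene, in any library. Among all interactions that touch a protein-coding gene, both bins did so in 52.2% and 54.2% at E16.5 and in 50.6% and 51.4% at E12.5. The next protein-coding gene downstream of Lmo4, 4930519L02Rik, is 1148 kb away, beyond the distances in the files. Upstream, the next one is Hs2st1, a heparan sulfate sulfotransferase gene, whose nearer end lies 224 kb beyond Lmo4, and no listed partner reached it. The RefSeq genes in the partner bins are long noncoding RNA genes such as A830019L24Rik and Gm40159, and 1 small nucleolar RNA gene. The partner bins had few other interactions. Those of E16.5 replicate 1 took part in 51 interactions, of which 44 (86.3%) were with Lmo4. In E16.5 replicate 2 and both E12.5 libraries all of them were with Lmo4 (51 of 51, 6 of 6 and 9 of 9). This was not particular to Lmo4, as all interactions of the Lmo3 partner bins at E16.5 were with Lmo3 (11 of 11 and 14 of 14). The shares for Lmo1 are given below, and the share over the partner bins of all genes was not computed.

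The contact of the Lmo4 start bin with chr3:144390001-144400000, 190 kb upstream, had the most read pairs of all Lmo4 contacts, summed over the libraries. It had 59 and 32 read pairs at E16.5 and 21 in E12.5 replicate 2, and was not listed in E12.5 replicate 1. These were 4.31 and 2.44 times the authors' expected count at E16.5 and 3.03 times at E12.5, so its ratio at E12.5 lay between the E16.5 ratios. The neighbouring bin at 200 kb was listed in the same 3 libraries, with 32 and 33 read pairs at E16.5 and 18 in E12.5 replicate 2. The bin at 170 kb, which holds the long noncoding RNA gene Gm34434, had 33 and 35 read pairs at E16.5 and was not listed at E12.5.

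Relative to expectation, the contact with the A830019L24Rik bin, 960 kb downstream (chr3:143240001-143250000), was the highest for Lmo4 at E16.5. It had 43 and 27 read pairs at E16.5 and 13 in E12.5 replicate 1, which were 13.0 and 9.13 times the expected count at E16.5 and 5.87 times at E12.5. It was not listed in E12.5 replicate 2. Over all Lmo4 interactions the median ratio of observed to expected was 4.81 and 4.50 at E16.5 and 5.24 and 4.45 at E12.5. No listed pair of any gene had a ratio under 2.00. The medians of all listed pairs were 3.96 and 4.03 at E16.5 and 3.995 and 4.02 at E12.5. Listed pairs are thus alike in ratio through the cut itself, and the overlap of the Lmo4 ratios cannot show equal enrichment at the stages. In the middle of the downstream span, 700 kb away, the bin chr3:143500001-143510000 had 22 and 29 read pairs at E16.5 and 15 in E12.5 replicate 2. Its neighbour at 690 kb had 21 and 29 at E16.5 and 14 in the same E12.5 library.

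Of 62 Lmo4 bin pairs listed at E16.5, 33 (53.2%) were listed in both libraries, against 40.5% of all bin pairs listed at E16.5. Those that begin at the start bin form 8 runs of neighbouring partner bins. The longest has 7 bins 650 to 710 kb downstream with 130 and 137 read pairs in the E16.5 libraries, and the most distant has 5 bins 940 to 980 kb downstream with 114 and 103. The upstream run has 4 bins 170 to 200 kb away, with 154 and 122 read pairs. At E12.5, 0 of 15 Lmo4 bin pairs were listed in both libraries, against 37.9% of all. Replicate 1 listed partners 590 to 620 kb and about 960 to 970 kb downstream, while replicate 2 listed 680 to 700 kb, 530 to 540 kb and 180 to 190 kb downstream and 190 to 200 kb upstream. Even so, 12 of the 15 E12.5 bin pairs were also listed at E16.5, and 3 were not. No Lmo4 bin pair was listed in all 4 libraries, so the strength of its contacts could not be tested between the stages.

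Lmo3 had listed interactions at E16.5 and none at E12.5. The gene (RefSeq gene 109593) spans 138362918 to 138582206 on chromosome 6, on the minus strand, over 23 bins. It had 11 and 14 listed interactions in the E16.5 libraries, against 0 and 0 in the E12.5 libraries. Both E16.5 libraries thus lay above both at E12.5, as they did for 64.5% of tested genes given the longer lists. The read pairs behind the Lmo3 interactions summed to 164 and 212 at E16.5. The observed numbers passed the test (adjusted p = 0.00272 by edgeR). No fold can be formed with 0 at E12.5. With 3 interactions assumed over the E12.5 stage, the scaled number would be 4.64-fold higher at E16.5, a ratio that was not itself tested. In all, 7.16% of the tested genes were at 0 in both E12.5 libraries, and such a gene enters the test only through its E16.5 numbers. The call did not hold with DESeq2 (adjusted p = 0.054) or with clusters counted once (5 and 5 against 0 and 0, adjusted p = 0.124 by edgeR), and with read pairs in place of numbers the adjusted p was 0.184 by edgeR.

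The Lmo3 interactions did not begin at the RefSeq start whose sequence is shown above. Lmo3 has no other start among those used here, so whether a further Lmo3 start lies in the contacting bins is not known. The bin of that start, chr6:138580001-138590000, had none in any library. All came from 2 neighbouring bins inside the gene, 160 and 170 kb downstream of it. The bin chr6:138420001-138430000 had 9 and 12 at E16.5 and the bin chr6:138410001-138420000 had 2 and 2. The first of these also holds the long noncoding RNA gene A830011K09Rik (138423105 to 138429592), and contacts of 2 genes in a shared bin cannot be told apart. The other 21 bins of the gene had none.

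Partners of Lmo3 lay on both sides, with 7 and 6 interactions downstream and 4 and 8 upstream at E16.5, and median distances of 560 and 645 kb. Of 22 bin pairs, 3 (13.6%) were listed in both E16.5 libraries, a lower share than the 40.5% of all bin pairs. The pair with the most read pairs joins the bin of A830011K09Rik to chr6:137980001-137990000, 440 kb downstream, which holds an end of Slc15a5, a solute carrier gene. It had 26 and 31 read pairs at E16.5, 3.85 and 6.08 times the expected count. The other 2 pairs of both libraries join the same Lmo3 bin to bins 820 and 830 kb upstream, in which the table has no gene. They had 16 and 23 read pairs and 15 and 15 read pairs, and at 820 kb these were 6.42 and 9.97 times the expected count. In E16.5 replicate 1 alone, 3 bins of Dera, a deoxyribose-phosphate aldolase gene, were listed 610 to 630 kb downstream. Bins about 280 to 290 kb upstream were listed in both libraries, but in neighbouring bins, not the same one. With lists cut to the length of the shortest, Lmo3 had 4 and 4 interactions at E16.5 and 0 and 0 at E12.5, too few to be tested.

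Lmo1 had few listed interactions, with no detected difference between the stages. The gene (RefSeq gene 109594) spans 109138565 to 109175207 on chromosome 7, on the minus strand, over 5 bins. It had 11 and 8 listed interactions in the E16.5 libraries, against 3 and 4 in the E12.5 libraries. The raw numbers did not overlap between the stages, which in this direction was so for 64.5% of tested genes. After scaling the number was 1.5-fold higher at E16.5 and did not pass (log2 change 0.58, SE 0.51, adjusted p = 0.58 by edgeR). The read pairs summed to 218 and 155 at E16.5 and 57 and 57 at E12.5. Counted over the bins of the gene's ends alone, the numbers were 5 and 3 at E16.5 and 3 and 2 at E12.5, and the log2 change was -0.14.

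All Lmo1 partners lay upstream, 80 to 300 kb away at E16.5 and 250 to 300 kb away at E12.5, and the median distance was 260 and 260 kb at E16.5 and 260 and 270 kb at E12.5. Of the interactions at E16.5, 8 of 11 and 8 of 8 had a partner bin that overlapped Stk33. At E12.5 these were 3 of 3 and 4 of 4. Stk33 is a serine/threonine kinase gene and the next protein-coding gene upstream. Interactions from different Lmo1 bins shared partner bins, with 6 and 4 distinct partner bins in all at E16.5 and 2 and 2 at E12.5. In E16.5 replicate 1, 1 further partner overlapped Trim66, a protein-coding gene, and 2 interactions reached the bin of the long noncoding RNA gene Gm32563, with 31 read pairs at 80 kb and 22 at 90 kb. All 5 bins of Lmo1 had an interaction in at least 1 library.

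Of the Lmo1 contacts, 1 was listed in all 4 libraries. It joins chr7:109130001-109140000, which holds the 3′ end of Lmo1, to chr7:109430001-109440000, 300 kb away, which holds an end of Stk33 and of the long noncoding RNA gene 1700095J03Rik. It had 14 and 20 read pairs at E16.5 and 18 and 15 at E12.5, and the stages overlapped. The scaled change was 0.80-fold (log2 change -0.32, SE 0.30, adjusted p = 0.637 by edgeR over 6875 contacts listed in all libraries, of which 5.88% were higher and 4.58% lower at E16.5). The same Stk33 bin was in contact with the bin of the Lmo1 start, with 21 and 24 read pairs at E16.5 and 19 in E12.5 replicate 1. The adjacent Stk33 bin, 250 kb from the Lmo1 start, had 30 in E16.5 replicate 1 and 20 and 18 at E12.5. The partner bins of Lmo1 also had listed interactions with other bins. They took part in 16 and 13 interactions at E16.5 and in 7 and 4 at E12.5. Those with Lmo1 made up 68.8% and 61.5% at E16.5 and 42.9% and 100% at E12.5. Of 13 Lmo1 bin pairs at E16.5, 6 (46.2%) were listed in both libraries, and of 5 at E12.5, 2 (40%) were. The 5 E12.5 pairs were all listed at E16.5.

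**Figure D3:**
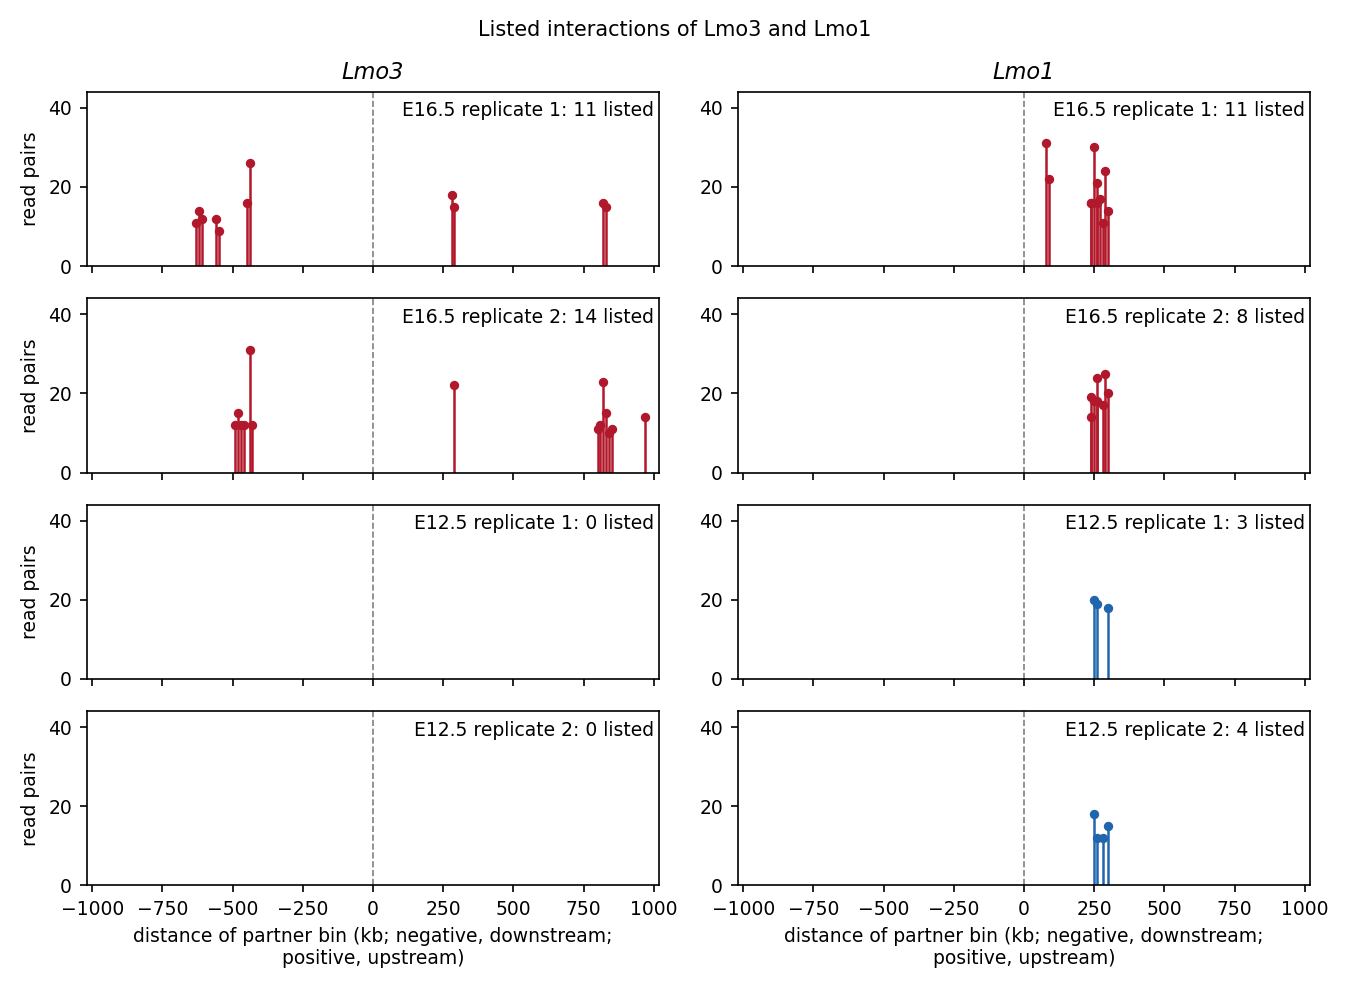
Read pairs (y axis) of each listed interaction of Lmo3 (left) and Lmo1 (right) against the distance of the partner bin from the bin of the gene in kb (x axis), with downstream partners at negative values, 1 row per library. Lmo3 has partners on both sides at E16.5 and no listed interaction at E12.5, while all partners of Lmo1 are upstream, most of them 240 to 300 kb away at both stages.

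A list of genes that work with LIM-only proteins or share their cofactors was examined in the same fit. It has 35 genes, 33 on autosomes; 17 had enough interactions to be tested and 9 had none in any library. Of the 17, 1 rose, 3 fell and 13 did not pass, and the median log2 change was -0.60 against 0.25 over all tested genes; 11.0% of all tested genes rose and 3.49% fell. Tcf4, an E-protein gene whose product pairs with neuronal basic helix-loop-helix factors, had 73 and 59 interactions at E16.5 and 16 and 21 at E12.5, and rose 1.98-fold after scaling (adjusted p = 0.0178 by edgeR). Its call ended without E12.5 replicate 1 (adjusted p = 0.18 by edgeR), with gene-end bins alone (0.675 by edgeR) and with DESeq2 (0.166). The genes that fell encode LIM-homeodomain transcription factors, but not all tested genes of that class fell. Isl1, Lhx8, Lhx9 and Lhx6 did not pass (adjusted p = 0.44, 0.49, 0.0907 and 0.383 by edgeR). Their log2 changes were -0.60, -0.63, -0.81 and 1.03, so that of Lhx6 went the other way. None of the 4 calls held with clusters counted once or with read pairs in place of numbers, settings in which no gene of the whole table was called.

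Lhx2, a gene of cortical progenitors, had 78 and 91 interactions at E16.5 and 100 and 99 at E12.5, so both E16.5 libraries were lower in raw number too (log2 change -1.08, adjusted p = 0.000437 by edgeR). Lhx1 had 24 and 27 at E16.5 and 26 and 29 at E12.5, with overlapping raw numbers, and fell relative to the library total (log2 change -0.95, adjusted p = 0.0202 by edgeR). Lhx5, like Lhx1 a gene of the early forebrain and Cajal-Retzius cells, had 28 and 18 at E16.5 and 29 and 22 at E12.5 (log2 change -0.99, adjusted p = 0.0351 by edgeR). The raw numbers of Lhx5 overlapped as well. With DESeq2 the call of Lhx2 held (adjusted p = 0.0356), and those of Lhx1 and Lhx5 did not (0.281 and 0.299). The call of Lhx1 ended without E12.5 replicate 1 or 2 (adjusted p = 0.059 and 0.153 by edgeR) and that of Lhx5 without E16.5 replicate 2 or E12.5 replicate 1 (0.199 and 0.169 by edgeR), while that of Lhx2 held without each library in turn. With clusters counted once, the log2 change was -0.017 for Lhx2 and turned to 0.49 for Lhx5.

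Of the genes that did not pass, Lhx9 had 26 and 18 interactions at E16.5 and 26 and 17 at E12.5 (adjusted p = 0.0907 by edgeR). The LIM-binding cofactor gene Ldb2 had 7 and 5 at E16.5 and 1 and 0 at E12.5 (adjusted p = 0.126 by edgeR). Neurog2, a proneural gene whose product is known to bind LMO4 in the cortex, had 4 and 7 at E16.5 and 8 and 6 at E12.5 (adjusted p = 0.158 by edgeR). Ldb1, a LIM-binding cofactor gene, had no listed interaction in any library. Lmo2, the remaining LIM-only gene, had 6 and 8 at E16.5 and 3 and 3 at E12.5 (adjusted p = 0.771 by edgeR). Ldb1 and Lmo2, and Isl1, Lhx6 and Lhx8 above, were picked out after their values were seen.

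**Figure D4:**
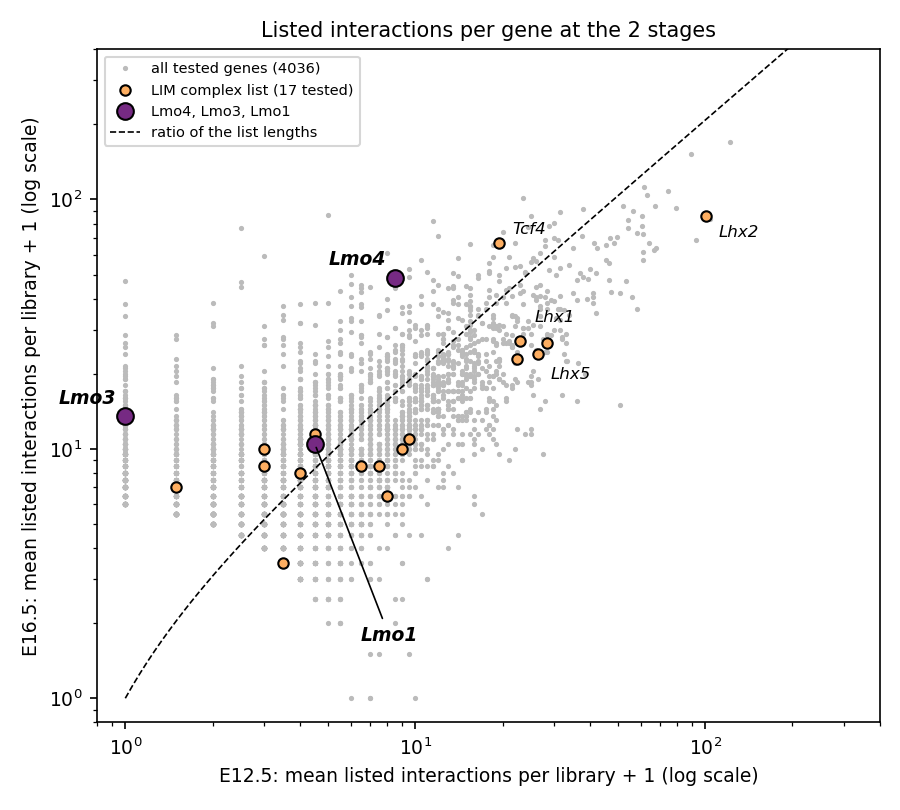
Mean number of listed interactions per library plus 1 for each of 4036 tested genes, with E16.5 on the y axis and E12.5 on the x axis, both on a log scale. Purple points are Lmo4, Lmo3 and Lmo1, orange points the 17 tested genes of the LIM complex list, with the 4 that passed named, and the dashed line is the ratio of the list lengths of 2.09; Lmo4, Lmo3 and Lmo1 lie above the line and Lhx2, Lhx1 and Lhx5 below it.

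The genes most like each member in number over the 4 libraries were picked by the Euclidean distance of log2(interactions per 10000 listed + 0.5), leaving out genes within 1 Mb. For Lmo4 these were Fat4 (36 and 50 at E16.5, 7 and 8 at E12.5, distance 0.374), Plk2, Btbd11, Sdccag8 and Aim2, at distances up to 0.632. For Lmo3 they were Tiam2, with the same 11 and 14 at E16.5 and 0 and 0 at E12.5, Fnip2, Plekha5, Sema6d and Zfp277, at distances up to 0.151. For Lmo1 they were Pcnx2 (10 and 8 at E16.5, 3 and 4 at E12.5), Tor1b, Arhgef10l, Fyb2 and Hormad2, at distances up to 0.297.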

How the data were processed

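The data were the deposited interaction lists of 4 H3K4me3 PLAC-seq libraries. The submitters' processing notes name the aligner BWA, SAMtools and the build mm10, without versions; no interaction caller is named. Per the file headers, each list gives, for pairs of 10 kb bins, the authors' count of read pairs, an expected count (used as a signal), an FDR (a q-value), and the size and −log10 p of the cluster. The deposited lists hold pairs 20 to 1000 kb apart, called in each library separately. All have an FDR under 0.01 and a count of at least 2.00 times the expected one.

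For every autosomal protein-coding gene of RefSeq (GRCm38.p6), the listed interactions with a bin overlapping its body were counted once each. Genes with a sum of at least 10 (4036) were tested with edgeR 4.0.16 in R 4.3.3 (TMM, robust quasi-likelihood, Benjamini-Hochberg at 0.05, E16.5 minus E12.5), and so were the read pairs of 6875 contacts listed in all libraries. The SE is the log2 change over the root of F. Among contacts of both replicates that averaged 40 or more read pairs (3376 at E16.5 and 1555 at E12.5), read pairs of the replicates differed by more than counting noise (chi-square 1.75 times its degrees of freedom at E16.5 and 1.30 at E12.5); contacts with fewer read pairs were not compared in this way. The median quasi-dispersion of the fits was 0.845 for genes and 0.92 for contacts, and setting it to at least 1 left 491 genes called. DESeq2 1.42.0 and other settings were alternatives.

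The named genes are the members, the members of the LIM complex list past the threshold with the 3 others of smallest p, the genes in the partner bins of up to 6 bin pairs per member with the most read pairs and of pairs listed in all libraries, and the 5 most alike genes. Long noncoding RNA genes and the other partner genes were named after the values were seen. Members and lists were chosen with earlier results of these data known, so their p-values do not come from an independent choice. Replicate numbers did not pair the libraries: over genes, the replicate differences of the stages correlated with r = 0.0781. A gene of a marker list is not reported here.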

Additional observations from a re-analysis of the deposited data

How the results depend on the processing

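The higher number of Lmo4 kept its direction in 15 of 15 alternatives and its call in 13. The log2 change ran from 0.99 to 2.26 and the adjusted p from 6.12e-06 to 0.615. It was 0.99 with clusters counted once and 2.03 with read pairs, and in both the call ended. Without 1 library at a time it ran from 1.44 to 2.12 with adjusted p of 2.75e-05 to 0.0476, the largest without E12.5 replicate 1. Lmo3 kept its call in 10 of 13 alternatives. Its direction could not have turned in any of them, as its E12.5 numbers were 0 throughout. The fitted log2 value of Lmo3, which depends on the prior count, was 6.30 as reported. It was 5.28 with DESeq2, 5.08 with clusters counted once and 10.2 with read pairs, and the call ended in these 3. Lmo3 could not be tested with lists of equal length or gene-end bins, nor Lmo1 with clusters counted once. Lmo1 passed in 0 of 14 alternatives (adjusted p 0.505 to 0.926) and its log2 change was -0.14 with gene-end bins. The number of genes called was 584, and 105 with DESeq2, 225 with an FDR under 0.0001, 262 with lists of equal length and 370 with the replicate block. It was 0 by edgeR with clusters counted once (181 of 1518 with an unadjusted p under 0.05) and 0 with read pairs (1566 of 9712); DESeq2 was not run on these tables. Without 1 library it ran from 268 to 507, 344 leaving out E16.5 replicate 2, 268 leaving out E12.5 replicate 1, and 321 leaving out the second E12.5 library. The replicate block changed no call of the 3 genes (adjusted p 0.00811 for Lmo4, 0.0224 for Lmo3 and 0.587 for Lmo1), and nothing but a number links same-numbered libraries. The number of contacts called in strength was 719, with 98 by DESeq2, 18 with the expected count as an offset and 274 to 537 without 1 library (475 leaving out E16.5 replicate 2, 301 leaving out E12.5 replicate 1, and 274 leaving out the second E12.5 library). The Lmo1 contact changed by 0.052 on the log2 scale with that offset; DESeq2 gave it no adjusted p, and it was left out at a minimum of 20 read pairs. The difference in median distance was 120 kb for Lmo4, with -140 kb at an FDR under 0.0001, 49.3 kb as a weighted mean and 77.5 to 162.5 kb without 1 library, and -5 kb for Lmo1, with -22.5, 5 and -26.7 kb at an FDR under 0.0001, with lists of equal length and as a weighted mean. The calls of the LIM complex list were put through the same 15 alternatives after the data were seen, and held in 13 for Lhx2, 10 for Tcf4, 9 for Lhx1 and 9 for Lhx5, whose log2 change turned to 0.49 with clusters counted once. Causes were not tested. Unknown depth limits any statement on pairs that are not listed.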
